A study of Homo sapiens with 6 samples.

Results

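Serous ovarian lineage markers are the genes by which a high-grade serous ovarian carcinoma is recognised. The 10 genes described here are PAX8, WT1, MECOM, SOX17, EMX2, ESR1, FOLR1, WFDC2, MSLN and CD24, of 19775 genes with a probe set of their own. The genes were listed by name, with earlier results of these data known. The members are all probe sets that the platform annotation pairs with exactly 1 of these symbols. That gave 39 probe sets of the 54675 on the Affymetrix Human Genome U133 Plus 2.0 array. PAX8 had 8, CD24 had 6, ESR1 had 9, MECOM had 5 and WFDC2 had 3. WT1, SOX17 and FOLR1 had 2 each, and EMX2 and MSLN had 1 each.

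All samples were the ovarian cancer cell line OVCA433, which the series calls high-grade serous, grown in RPMI1640 with 10% fetal bovine serum. The control group (3 arrays, treatment none) had its medium replaced 24 hours after seeding with fresh medium lacking versican. The versican group (3 arrays) was given fresh medium containing exogenous versican (VCAN), a large matrix proteoglycan, and RNA was taken at 48 hours. The protocol text calls the harvested cells transfected, which no sample title does, and the versican dose was not given in the sources used here. Both groups are 1 line, and nothing says that the 3 samples of a group came from separate days, so the p-values cover only how these samples vary, and some of that variation may be technical.

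Most of these genes fall into 2 classes. PAX8, WT1, MECOM, SOX17 and EMX2 encode transcription factors that act in the developing Mullerian duct, kidney or endoderm and that serous tumours retain, and ESR1 encodes the ligand-activated estrogen receptor alpha. FOLR1, WFDC2, MSLN and CD24 encode surface or secreted proteins that are abundant on serous carcinoma and are used as serum markers or drug targets. FOLR1, MSLN and CD24 are held in the membrane by a glycolipid anchor.

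For orientation, the 250 bases upstream of the annotated start are shown for PAX8, which rose in all 8 probe sets, a member with several probe sets that all fell (CD24, the first of 3 annotated starts) and a bright member with no detected change (WFDC2). Sequences are RefSeq's on GRCh38.p14, read 5′ to 3′ on the gene's strand, and 7 of the 10 genes matched the promoter table. PAX8 is at chr2:113278922-113279171 (minus strand), CD24 at chr6:106975628-106975877 (minus strand) and WFDC2 at chr20:45469503-45469752 (plus strand). Capitals mark matches on either strand to the TATA box TATAAA, the CCAAT box, the GC box GGGCGG or the AP-1 core TGANTCA.
PAX8: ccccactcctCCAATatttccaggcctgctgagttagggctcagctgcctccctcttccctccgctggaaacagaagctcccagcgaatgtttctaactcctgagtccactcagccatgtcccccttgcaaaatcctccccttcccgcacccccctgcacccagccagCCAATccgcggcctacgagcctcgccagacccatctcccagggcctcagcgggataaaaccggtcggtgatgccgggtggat
CD24: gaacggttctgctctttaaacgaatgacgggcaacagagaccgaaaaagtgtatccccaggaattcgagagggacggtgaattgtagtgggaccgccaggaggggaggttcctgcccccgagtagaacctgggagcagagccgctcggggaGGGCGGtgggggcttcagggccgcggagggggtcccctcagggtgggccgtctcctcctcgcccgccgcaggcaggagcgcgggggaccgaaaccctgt
WFDC2: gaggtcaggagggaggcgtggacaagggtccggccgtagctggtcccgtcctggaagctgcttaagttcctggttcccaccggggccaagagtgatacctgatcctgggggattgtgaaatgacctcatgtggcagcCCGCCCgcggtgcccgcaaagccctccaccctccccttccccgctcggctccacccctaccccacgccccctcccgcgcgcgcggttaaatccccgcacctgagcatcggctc
The PAX8 window held 2 matches to CCAAT, which 32% of 35116 promoter windows of this length hold. CD24 and WFDC2 each held 1 match to GGGCGG, found in 42.6% of windows. None of the 3 windows held TATAAA (10.7% of windows) or TGANTCA (6.57%). These are matches of letters in a window and show no binding.

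Signals are MAS5 values on a linear scale, in arbitrary units, and each array had the same 2% trimmed mean of 500.1. Changes are differences of log2(signal + 16), versican minus control, which understate the change of dim probe sets. A probe set was tested if its mean log2(signal + 16) over the 6 arrays lay in the upper 50% of the 54613 that are not controls. For the 27306 tested this put the filter floor at a signal of about 64.2. A probe set with uneven values can have a higher mean signal and still go untested. A call is an adjusted p under 0.05 from limma's moderated test across all tested probe sets. Median signal over all probe sets was between 62.8 and 75.8 per array. Arrays of a group correlated at 0.989 to 0.991 over tested probe sets and pairs from both groups at 0.976 to 0.978. The number of arrays limits the precision.

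PAX8 and MECOM rose and CD24 and MSLN fell, FOLR1 fell in 1 of its 2 probe sets, and no change was detected in SOX17 or WFDC2. WT1, EMX2 and ESR1 lay below the filter in every probe set. Of the 39 probe sets 24 were tested, and 10 of these were called higher and 8 lower, or 75%, where 27.8% of all tested probe sets were called (13.6% higher and 14.1% lower). A gene's probe sets read the same RNA and are no replicates, and PAX8 and CD24 supply 14 of the 18 calls. Counted by gene, with each gene read by its probe set of highest mean, 2 of 7 tested members were called higher and 2 lower, where 41.6% of 9887 genes were called (21% higher and 20.6% lower). The median absolute log2 change was 0.67 over the tested member probe sets and 0.19 over all. The signed medians were 0.05 and 0.00. PAX8 and CD24 also supply 14 of the 24 tested probe sets, so these medians weigh them most. By gene, the log2 changes were 0.90 (PAX8), -0.58 (CD24), -0.30 (MSLN), 0.21 (MECOM), -0.20 (SOX17), -0.11 (FOLR1) and 0.05 (WFDC2). The median absolute change over all 12059 genes whose probe set of highest mean was tested was 0.19. Versican and control values did not overlap for 19 of the 24 (10 higher, 9 lower), where 41.8% of all tested probe sets did not overlap (20.3% higher and 21.5% lower). Of these 19, PAX8 and CD24 supply 14.

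**Figure D1:**
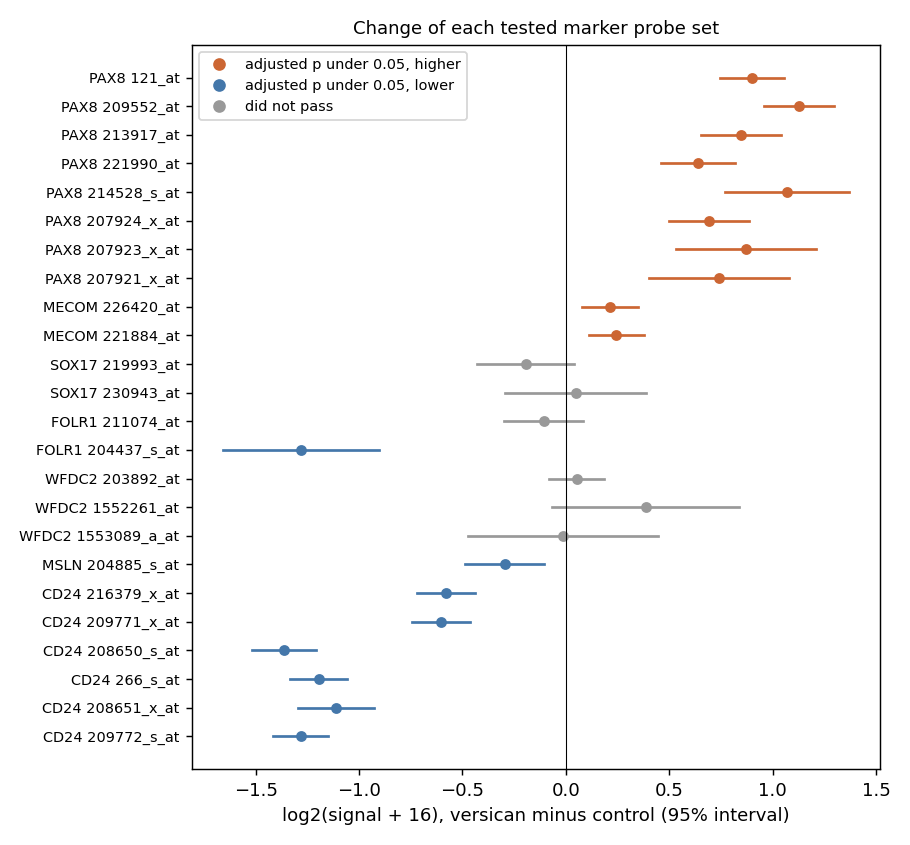
Difference of log2(signal + 16), versican minus control, for the 24 tested probe sets (points), with 95% intervals (lines) from 3 arrays per group; colour gives the call. All 8 PAX8 probe sets lie to the right of 0, between 0.64 and 1.13, and all 6 CD24 probe sets to the left, between -1.36 and -0.58.

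PAX8 is a paired-box transcription factor of thyroid, kidney and Mullerian epithelium, and the antibody marker pathologists use most often to assign a tumour to the Mullerian tract. Its brightest probe set, 121_at, read 2208, 1943 and 1952 in the control arrays and 4025, 3870 and 3520 in the versican arrays. The lowest versican array was above the highest control array by a wide margin. The rise was 1.86-fold (log2 0.90, SE 0.07, limma adjusted p = 6.5e-06).

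The other 7 PAX8 probe sets rose as well. Probe set 209552_at changed most, from 489, 460 and 492 to 1050, 1015 and 1137, a rise of 2.18-fold (log2 1.13, SE 0.08, limma adjusted p = 2.7e-06). Probe set 221990_at changed least, from 470, 458 and 454 to 703, 776 and 703, or 1.56-fold (log2 0.64, SE 0.08, limma adjusted p = 0.00019). Within each of these the 2 groups were far apart compared with their own spread. Probe set 214528_s_at rose 2.10-fold, from 331 ± 59.6 to 709 ± 92.6 (SD, n = 3 each), and 213917_at rose 1.80-fold, from 479 ± 25.6 to 875 ± 74.3. The 3 probe sets whose suffix _x_at marks possible cross-hybridisation, 207923_x_at, 207924_x_at and 207921_x_at, rose 1.83-fold, 1.62-fold and 1.67-fold. The dimmest of them, 207921_x_at, had 140, 167 and 122 in control and 218, 269 and 258 in versican arrays. No control value reached any versican value of the same probe set in all 8. The median over the 8 was a log2 change of 0.86. For each member with several tested probe sets, the log2 difference between the brightest and the dimmest was compared between groups by a two-sided exact permutation test. With 3 arrays against 3 that test cannot give a p below 0.10. For PAX8 the difference, between 121_at and 207921_x_at, was larger by 0.16 in the versican group (exact permutation p = 0.60, and 0.70 adjusted over the 6 members compared).

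**Figure D2:**
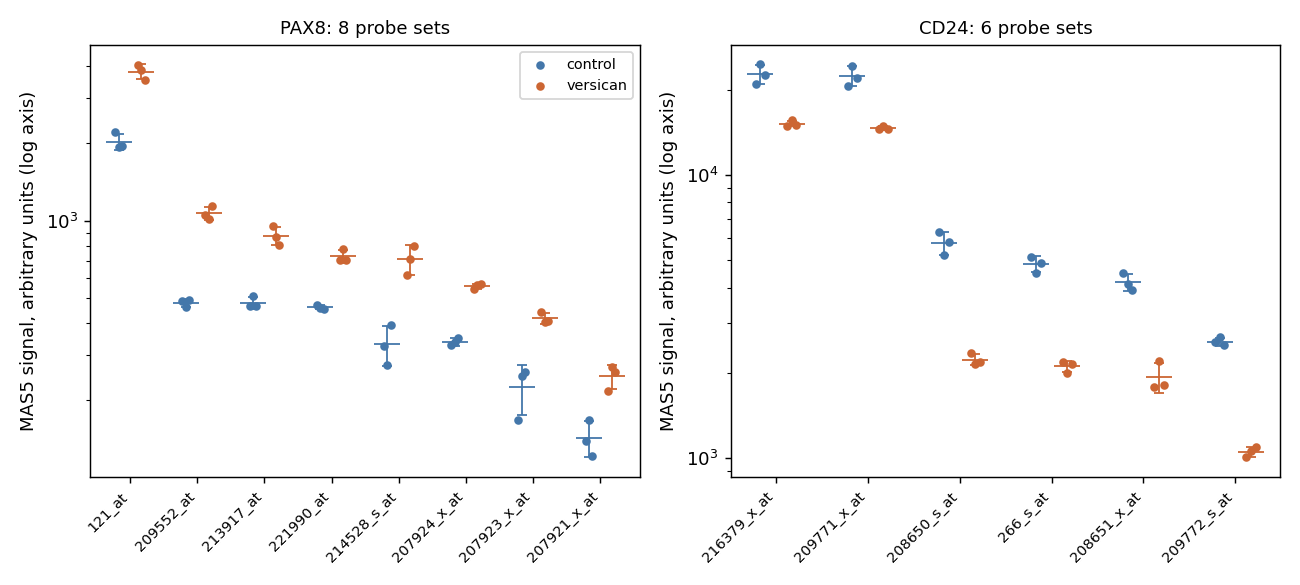
MAS5 signal (log axis) on each array for the PAX8 (left) and CD24 (right) probe sets; points are arrays, horizontal marks are group means and bars are 1 SD (n = 3). Every PAX8 probe set is higher and every CD24 probe set lower in the versican group with no overlap, and the 2 brightest CD24 probe sets move least.

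MECOM encodes EVI1, a zinc finger transcription factor whose locus is often amplified in serous ovarian cancer. Its 2 bright probe sets rose by small amounts. Probe set 226420_at read 2471, 2787 and 2733 in control and 2962, 3176 and 3124 in versican arrays, 1.16-fold higher (log2 0.21, SE 0.06, limma adjusted p = 0.024). Probe set 221884_at read 1853, 2090 and 1909 against 2355, 2291 and 2286, 1.18-fold higher (log2 0.24, SE 0.06, limma adjusted p = 0.011). The groups did not overlap in either, but the highest control and the lowest versican values lay near each other. Both calls were lost after median centring (limma adjusted p = 0.14 and 0.081) and without the intensity trend (0.094 and 0.056). The call for 226420_at was also lost with no filter (0.0504) and without control replicate 1 (0.068), versican replicate 2 (0.074) or versican replicate 3 (0.076). The other 3 MECOM probe sets, 215851_at, 208434_at and 243277_x_at, had means from 8.79 to 13.6 in control and from 15.9 to 19.9 in versican arrays and were not tested. MECOM averaged over all 5 did not pass (log2 0.27, limma adjusted p = 0.11).

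SOX17, an HMG-box factor of endoderm and Mullerian epithelium that is co-expressed with PAX8 in serous tumours, had moderate signal and was not called. Probe set 219993_at read 353, 356 and 392 in control and 346, 317 and 294 in versican arrays (log2 -0.20, 95% interval -0.43 to 0.04, limma adjusted p = 0.21). Every versican array was below every control array there, but the closest values of the 2 groups were nearly level. Probe set 230943_at read 286, 222 and 286 against 335, 240 and 251, with overlapping groups (log2 0.05, 95% interval -0.29 to 0.39, limma adjusted p = 0.86). The 2 probe sets therefore gave estimates of opposite sign. The log2 difference between them, 219993_at minus 230943_at, changed by -0.24 with versican (exact permutation p = 0.20, and 0.40 adjusted over 6 members). That test cannot give a p below 0.10 here, so it cannot decide whether the 2 probe sets differ.

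All probe sets of WT1, EMX2 and ESR1 lay below the filter. WT1 and EMX2 had low signals on every array. The brightest ESR1 probe set had means of 52.0 in control and 76.2 with versican, on either side of the floor of 64.2. WT1 is a zinc finger factor of the urogenital ridge and a common antibody marker of serous histology. Its probe set 206067_s_at read 8.52, 3.09 and 15.0 in control and 24.1, 22.9 and 36.8 in versican arrays, with no overlap. Its second probe set, 216953_s_at, read between 1.07 and 5.05 on all arrays and overlapped. The signal of 206067_s_at was low on every array, below the lowest mean of any tested probe set. With no filter its log2 change was 0.83 (SE 0.28), and it did not pass (limma adjusted p = 0.090).

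EMX2, a homeobox factor needed for the urogenital system, read 10.1, 5.14 and 0.798 in control and 9.97, 2.35 and 24.5 in versican arrays. These values have no order by group. ESR1 was read by 9 probe sets, with control means from 5.44 to 52.0 and versican means from 5.92 to 76.2. The brightest, 205225_at, read 61.7, 49.5 and 44.8 in control and 89.2, 63.9 and 75.6 in versican arrays. Its groups were separate by a small gap between 61.7 and 63.9. The other 8 ESR1 probe sets overlapped, and single arrays spread widely: 215551_at ran from 6.39 to 57.8 in control and from 27.1 to 103 in versican arrays. With no filter, where 11.7% of all probe sets were called, none of the 15 dim member probe sets passed by limma, and 1 had an unadjusted p under 0.05, 206067_s_at of WT1. Values of 3 of these 15 did not overlap, all higher with versican: 206067_s_at, 205225_at and 243277_x_at. Among all probe sets below the filter, 12% did not overlap (5.98% higher). MAS5 detection calls were not used here, so expression of these 3 genes is neither shown nor shown to be absent.

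**Figure D3:**
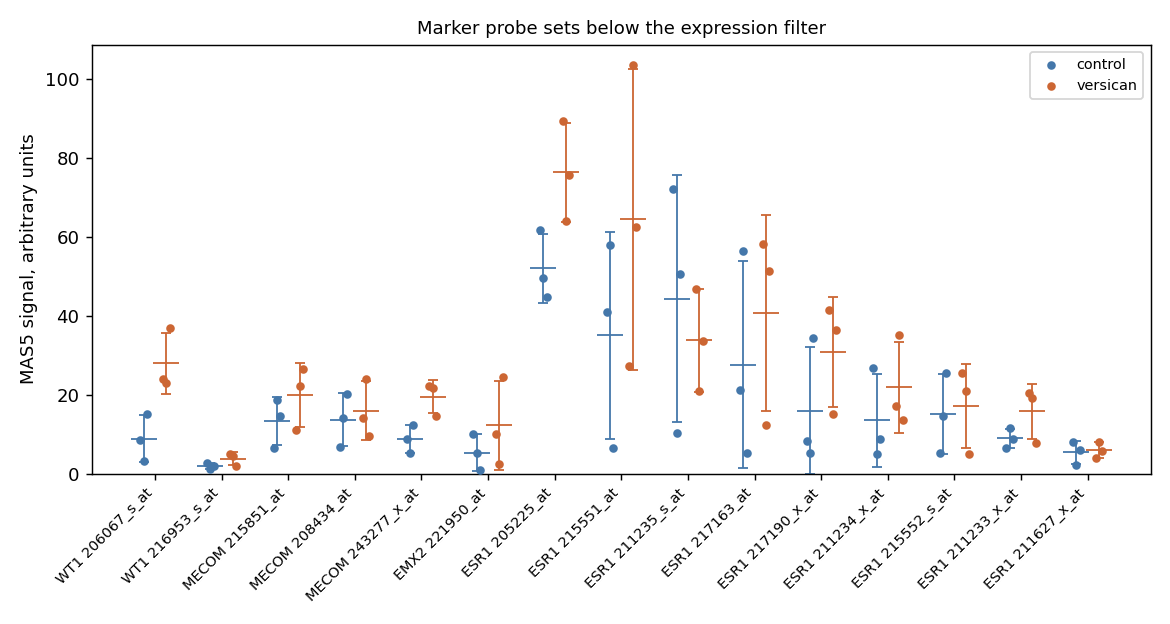
MAS5 signal (linear axis) on each array for the 15 member probe sets below the expression filter; points are arrays, horizontal marks are means and bars are 1 SD (n = 3). Signals run from 0.798 to 103, and groups are separate for 206067_s_at of WT1, 205225_at of ESR1 and 243277_x_at of MECOM.

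Among the surface and secreted markers, CD24 changed most. CD24 is a small, heavily glycosylated membrane protein that binds the inhibitory receptor Siglec-10 on macrophages. Probe set 208650_s_at read 6286, 5231 and 5775 in control and 2344, 2149 and 2185 in versican arrays. It was 2.57-fold lower (log2 -1.36, SE 0.07, limma adjusted p = 4.8e-07). The lowest control array was far above the highest versican array. Probe set 209772_s_at was 2.43-fold lower, from 2578 ± 85.0 to 1050 ± 43.2, 266_s_at was 2.29-fold lower, from 4849 ± 314 to 2107 ± 102, and 208651_x_at was 2.16-fold lower, from 4180 ± 293 to 1931 ± 230 (SD, n = 3 each).

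The 2 brightest CD24 probe sets fell less. Probe set 216379_x_at read 21028, 24643 and 22657 in control and 14950, 15620 and 15074 in versican arrays, 1.49-fold lower (log2 -0.58, SE 0.06, limma adjusted p = 6.8e-05). Probe set 209771_x_at followed it closely, 1.52-fold lower (log2 -0.60, SE 0.06, limma adjusted p = 5.0e-05). The highest signal of any probe set on an array was between 33664 and 40438. The log2 difference between the brightest (216379_x_at) and the dimmest (209772_s_at) went from 3.13 ± 0.089 to 3.84 ± 0.056 with versican (SD, 3 arrays each). The exact permutation p was 0.10, the lowest that test can give with 3 arrays against 3, and 0.30 adjusted over 6 members. All 6 CD24 probe sets end in _s_at or _x_at, suffixes for probes that may match more than 1 transcript. A gene-level summary that takes the brightest probe set reports the 1.49-fold decrease, and the mean over all 6 gives 2.03-fold lower (limma adjusted p = 3.1e-07). In bulk RNA, fewer cells with a transcript and less of it per cell cannot be told apart.

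FOLR1, folate receptor alpha, carries folate into cells and is the target of antibody-drug conjugates in ovarian cancer. Its 2 probe sets disagreed. Probe set 204437_s_at read 256, 310 and 239 in control and 114, 79.9 and 111 in versican arrays. The lowest control value was well above the highest versican value, and the decrease was 2.43-fold (log2 -1.28, SE 0.17, limma adjusted p = 0.00027). Probe set 211074_at read 2974, 2410 and 2361 in control and 2340, 2275 and 2538 in versican arrays, with overlapping groups (log2 -0.11, 95% interval -0.30 to 0.08, limma adjusted p = 0.40). That interval excludes a change of the size seen in the first. The log2 difference between them, 211074_at minus 204437_s_at, went from 3.19 ± 0.28 to 4.36 ± 0.20 with versican (SD, 3 arrays each). The exact permutation p was 0.10, the lowest that test can give with 3 arrays against 3, and 0.30 adjusted over 6 members. Because 211074_at is the brighter, a gene-level table by brightest probe set shows no call for FOLR1 (limma adjusted p = 0.35). The mean of both gives 1.62-fold lower (log2 -0.69, limma adjusted p = 0.00029), in a fit that called 33.4% of genes. Probe sequences were not used here, so which transcripts each probe set reads is not known from these data.

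**Figure D4:**
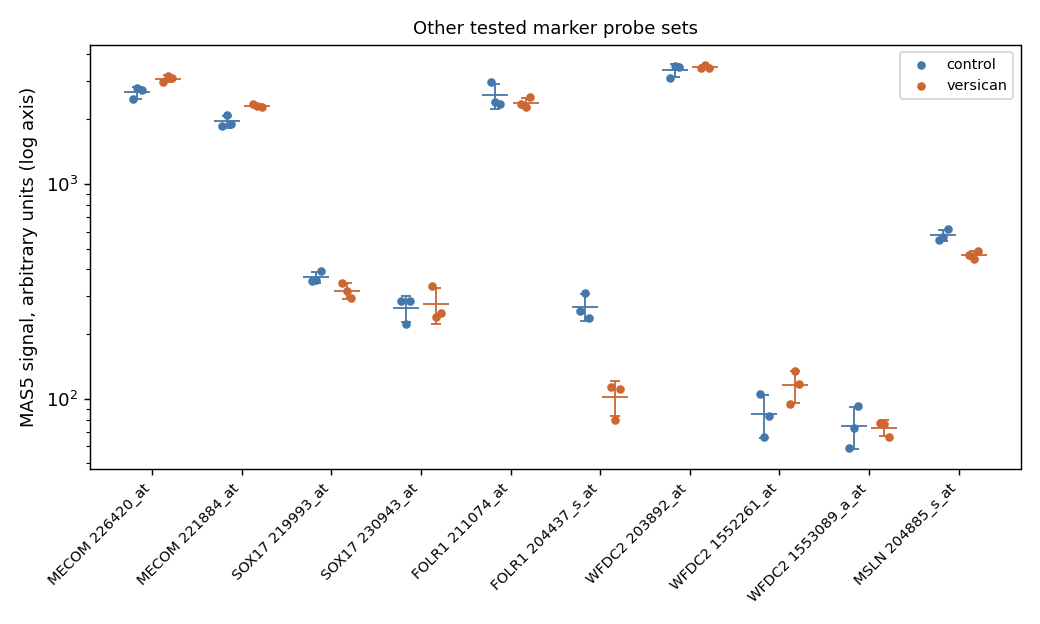
MAS5 signal (log axis) on each array for the 10 tested probe sets of MECOM, SOX17, FOLR1, WFDC2 and MSLN; points are arrays, horizontal marks are means and bars are 1 SD (n = 3). In FOLR1, 204437_s_at drops from 268 to 102 while 211074_at stays near its control values.

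MSLN, mesothelin, is the surface protein that binds the mucin MUC16 on neighbouring cells. Its probe set 204885_s_at read 548, 565 and 616 in control and 465, 447 and 486 in versican arrays, 1.23-fold lower (log2 -0.30, SE 0.09, limma adjusted p = 0.027). The groups did not overlap, and the change was small. The call was lost after median centring (0.11), without control replicate 2 (0.055) or 3 (0.10), and without versican replicate 1 (0.070) or 2 (0.079), all limma adjusted p-values. MUC16 itself read 810 ± 8.89 and 719 ± 43.4 (SD, n = 3 each) and was not called (log2 -0.17, limma adjusted p = 0.12).

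WFDC2 encodes HE4, a secreted protein with whey acidic protein domains that is measured in serum to follow ovarian cancer. Its main probe set 203892_at was bright and steady. It read 3100, 3518 and 3510 in control and 3449, 3568 and 3464 in versican arrays (log2 0.05, 95% interval -0.08 to 0.19, limma adjusted p = 0.58). The interval leaves room for at most a small change in either direction. The dim probe sets 1552261_at and 1553089_a_at had log2 changes of 0.39 and -0.01 (limma adjusted p = 0.20 and 0.97), with 95% intervals of -0.07 to 0.84 and -0.47 to 0.45.

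Other genes around these markers were read by their probe set of highest mean. Over all 12059 genes tested that way in the fit of all probe sets, 34.2% were called (17.2% higher and 17% lower), with a median log2 change of 0.00. Of 22 genes of Mullerian and urogenital development besides the members, 16 were measured and 5 tested. EYA1, a transcriptional coactivator of kidney development, rose from 41.9 ± 32.7 to 116 ± 11.2 (SD, n = 3 each; limma adjusted p = 0.025). The control mean of EYA1 lay below the filter floor, so EYA1 was tested only because the versican arrays were higher. WNT7A, a ligand needed for the female reproductive tract, rose 1.68-fold (log2 0.75, SE 0.16, limma adjusted p = 0.0056). GATA6, a zinc finger factor, was 1.57-fold lower, from 1261 ± 34.2 to 796 ± 60.1 (SD, n = 3 each; limma adjusted p = 7.5e-05). PAX2, a close relative of PAX8, was dim, at 41.0 ± 28.7 and 67.4 ± 23.8. Of 7 measured genes that PAX8 or its partners govern in thyroid and kidney, 1 was tested, the thyroid and lung factor NKX2-1, and it did not pass (log2 0.43, limma adjusted p = 0.19). Thyroglobulin (TG) read 4.92 ± 1.70 and 14.5 ± 12.0.

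In a list of serous carcinoma genes, mostly secretory or surface ones, more fell than rose. The list also held genes of intracellular proteins, among them the keratins, CCNE1, ELF3, CRABP2 and PRAME. ELF3, CRABP2 and PRAME were among those that fell, as were the related kallikrein genes KLK6, KLK7, KLK8 and KLK10. Of 25 listed, 21 were tested, and 11 fell and 1 rose, with a median log2 change of -0.34, where 17% of all genes read this way fell. CP, the copper-carrying ceruloplasmin, was 3.06-fold lower (log2 -1.61, SE 0.19, limma adjusted p = 0.00013). Its versican mean of 56.7 lay below the filter floor of 64.2, so it was tested only because the control arrays were higher. KLK8, a kallikrein-related peptidase, was 2.61-fold lower, from 1888 ± 20.2 to 717 ± 80.3 (SD, n = 3 each). SPON1, the adhesion protein F-spondin, was the 1 that rose, from 53.1 ± 18.5 to 160 ± 21.6 (SD, n = 3 each). Its limma adjusted p was 0.00092, and it passed the filter only through the versican arrays, since its control mean lay below the floor. The keratins KRT7, KRT8 and KRT18 and the epithelial adhesion molecule EPCAM, named after their values were seen, had log2 changes of -0.15, 0.05, 0.05 and -0.07 and did not pass.

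Of 20 genes that respond to estrogen through ESR1 in other tissues, 13 were tested, and 5 fell and 2 rose (median log2 change -0.22), beside 17% lower and 17.2% higher over all genes read this way. STC2, the secreted hormone stanniocalcin 2, was 1.75-fold lower (log2 -0.80, SE 0.05), IGFBP4, an IGF-binding protein, 1.35-fold lower and CELSR2, an atypical cadherin, 1.25-fold lower (limma adjusted p = 2.3e-06, 0.0039 and 0.0048). PGR, GREB1 and TFF1, the classical targets, were dim in both groups, with means from 13.2 to 28.1. Among close relatives and partners of the members, 7 of 20 measured genes were tested. WFDC3, a relative of WFDC2, and SLC19A1, the reduced folate carrier, rose 1.88-fold and 1.33-fold (limma adjusted p = 0.011 and 0.048). The control mean of WFDC3, 60.2, lay below the filter floor of 64.2, so WFDC3 was tested only because the versican arrays were higher. SLPI, a protease inhibitor with the same domain type as WFDC2, was 1.34-fold lower (limma adjusted p = 8.8e-05). The other folate receptors FOLR2 and FOLR3 were dim, at 16.7 ± 7.11 and 40.1 ± 13.0 in control and 28.4 ± 6.18 and 16.4 ± 9.02 with versican (SD, n = 3 each).

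Most fibroblast, leukocyte, endothelial and ciliated cell markers lay below the filter. Most mesothelial and other adenocarcinoma markers were above it. Of 10 measured fibroblast markers 2 were tested, and the sum over the list ran from 5281 to 5375 in control and from 2758 to 3280 in versican arrays. COL1A1, which fell 1.85-fold (limma adjusted p = 4.7e-06), supplied most of that sum, while COL1A2 and COL3A1 had means from 8.77 to 30.2. Of 10 leukocyte and endothelial markers 3 were tested, with sums from 1163 to 1280 and from 1283 to 1444. LAPTM5 rose 1.24-fold (limma adjusted p = 0.0047), and PTPRC, CD45, read 14.5 ± 1.88 and 25.3 ± 5.77 (SD, n = 3 each). CDH5 and PECAM1 had control means of 172 and 85.9 and did not pass. Of 12 mesothelial and ovarian surface markers 7 were tested, with sums from 3161 to 3616 and from 2566 to 3023. LRRN4 rose 2.75-fold, from 50.1 ± 15.0 to 164 ± 26.5, and NR2F1 was 1.30-fold lower (limma adjusted p = 0.00053 and 0.0097), while CALB2 was dim at 61.7 ± 40.2 and 46.7 ± 16.6. The control mean of LRRN4 lay below the filter floor of 64.2, so LRRN4 was tested only because the versican arrays were higher. BNC1, UPK1B, PDPN, UPK3B and DES had control means of 399, 261, 207, 126 and 101 and did not pass. Of 9 ciliated tubal cell markers 2 were tested, with sums from 1523 to 1663 and from 1339 to 1498, and neither passed. These were CAPS and DNAH5, with control means of 1150 and 211. FOXJ1, the factor that defines ciliated cells, read 54.6 ± 7.53 and 55.6 ± 2.81. Among 10 measured markers of other adenocarcinomas 6 were tested, with sums from 7423 to 7529 and from 6366 to 6655, mostly from GATA3, which was 1.17-fold lower (limma adjusted p = 0.0061). KLK3, SFTPC, SFTPB, AMACR and NKX2-1 had control means of 253, 149, 135, 86.7 and 64.7 and did not pass. The intestinal markers CDX2 and KRT20 had means from 9.08 to 16.8. No marker was listed at 0, and the part of other cells in the member changes was not tested.

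Likeness of pattern was measured as the Euclidean distance over the 6 arrays between log2 profiles, each set to its own control mean. For PAX8 (121_at) the nearest other genes were CD58, ATF5 and NETO2, at distances of 0.098, 0.12 and 0.14 and log2 changes of 0.94, 0.89 and 0.91. For CD24 (216379_x_at) they were ATOSA, TKT and SAT1 (distances 0.055, 0.062 and 0.070). INPP5A, EXOSC4 and CEBPB lay nearest to MECOM (0.046, 0.046 and 0.050), and QKI, CSNK1D and SQLE nearest to MSLN (0.060, 0.075 and 0.077). These are descriptions of profiles dominated by the difference between the 2 groups.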

How the data were processed

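The 6 arrays were hybridised with biotin-labelled cRNA made from 100 ng of total RNA, per the labels' protocols. The authors deposited 1 table of intensity values, probe set signals for which the submitters' processing notes name MAS5 with no version. Detection calls were not used here. MAS5 subtracts mismatch probes, and its low values are noisy. GEO's platform annotation paired 41091 non-control probe sets with 1 symbol, 1801 with several and 11721 with none. Symbols were updated through gene identifiers for 41037. No genome was used.

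Values were taken as log2(signal + 16) with no further normalization. R 4.3.3 and limma 3.58.1 fitted the group as the only term (lmFit, eBayes with an intensity trend, two-sided, Benjamini-Hochberg adjustment at 0.05 over 27306 probe sets); the fit was tested on simulated data. The same-numbered arrays deviated together with correlations of 0.059, 0.0026 and -0.026 and were not taken as pairs. The members and lists were chosen with earlier results of these data known. Named were all member probe sets, the 3 largest called changes of each list, dim defining markers, and the 3 nearest profiles per called member; other names were chosen after their values were seen. Alternatives covered the pseudocount, filter, normalization, variance model, probe set summary, replicate block and each array left out.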

Additional observations from a re-analysis of the deposited data

How the results depend on the processing

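Of 419 values of single probe sets or genes under alternatives, 396 kept their direction and their side of the threshold, and the 14 that lost a call were all of MECOM or MSLN. All PAX8 and CD24 probe sets and 204437_s_at of FOLR1 passed under every alternative that tested them. Leaving out _x_at and _s_at probe sets left 12 member probe sets. By limma 6 of them were called higher and 0 lower (0 lower at an unadjusted p under 0.05). It removes all CD24 probe sets, MSLN and 204437_s_at. Of all 16805 probe sets left, 2092 were higher and 2357 lower. With 1 probe set per gene 2 of 7 members were higher and 2 lower (2081 and 2036 of all 9887 genes). With a mean over each gene 1 of 7 was higher and 3 lower (1697 and 1604 of 9887). These count genes. With the replicate number as a block 10 of 24 member probe sets were higher and 8 lower, beside 3531 and 3654 of all 27306. The block therefore changed no member count. Small uncalled values changed sign. Leaving out 1 array in turn, 230943_at of SOX17 ranged from -0.094 to 0.13, 203892_at of WFDC2 from -0.0085 to 0.082 and 1553089_a_at of WFDC2 from -0.14 to 0.12. The last was also 0.017 after quantile normalization, 0.0087 after median centring and 0.013 after cyclic loess. The causes were not tested. Leaving out 1 array in turn gave 9 to 10 of 24 member probe sets higher and 7 to 8 lower. Of all 27306 probe sets, 2807 to 3451 were then higher and 3053 to 3389 lower. WT1, EMX2 and ESR1 lay below the filter in every probe set, so their changes were not tested in the main fit.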
